A study of Canis lupus familiaris with 14 samples.

Results

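Heat shock proteins and chaperonins are the proteins that fold other proteins, keep them from clumping and hand those that cannot be folded to degradation. HSP70 proteins bind short stretches of unfolded chains in a cycle driven by ATP, the J-domain proteins (DNAJA, DNAJB and DNAJC) bring them their clients and start that cycle, and HSP110 proteins reset it by nucleotide exchange. HSP90 finishes the folding of kinases and receptors, small heat shock proteins hold unfolded chains without ATP, and the chaperonins CCT (in the cytosol) and HSP60 with its lid HSP10 (in mitochondria) enclose a client in a chamber. In lymphoid cells this machinery is known to serve growth and division, and its branch in the endoplasmic reticulum (ER) is known to expand in plasma cells, which fold antibody for export.

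Expression of these genes was taken from Affymetrix GeneChip Canine Genome V2.0 arrays, on which a gene is read by probe sets of short oligonucleotides and each value is a MAS 5.0 signal, given here as log2. A gene was a member if its single annotated symbol began with HSPA, HSPB, HSPD, HSPE, HSPH, HSP90, DNAJA, DNAJB or DNAJC, or was TCP1 or one of CCT2 to CCT8. This gave 71 of the 15115 genes with a symbol, read by 157 probe sets, which were averaged per gene. The rule used no measured value. By family there were 8 CCT subunits, 8 HSP70 genes, 3 HSP110 genes, 3 HSP90 genes, 7 small heat shock proteins, 3 DNAJA, 12 DNAJB and 23 DNAJC genes, HSPD1 and HSPE1 (HSP60 and HSP10), and HSPBAP1 and HSPBP1, which bind heat shock proteins and met the rule by name only. The symbols HSPA1A, HSPA1B, HSPA6, DNAJA1 and CCT6A were not among those of the single-symbol probe sets, and a gene with the symbol HSP70, outside the rule, is described among the closing observations.

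The samples were aspirates of lymph nodes from 10 pet dogs with lymphoma, 7 labelled B-cell and 3 labelled T-cell, and nodes of 3 normal Beagles of a research colony, dog 3024 giving a left and a right node (3024l and 3024r). The lymphoma dogs were of several breeds, came from 3 clinics and were sampled before an experimental PI3K inhibitor was given, and 4 of them (FS21, FS22, FS25 and RB07) had relapsed after earlier chemotherapy. Colony and clinic therefore cannot be told apart from disease. Breed differed as well, except that FS22 was a Beagle like the normal dogs. The study's clustering of all genes set apart lymphomas E-J (FS21, FS22, NE41, NE42, RB03 and RB16) and K-N (FS25, NE45, RB07 and RB10), and its B-cell set held FS21, NE42, RB03 and RB16 against normal nodes 63, 2970 and 3024r. Since the classes were drawn from the profiles of these same samples, values by class are given as a description with no test. The B-cell set was also chosen in part from these profiles but was tested. Its p-values, here and below, therefore rest on samples picked partly by their expression. Nothing in the labels ties a node to a batch of arrays.

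Some labels went against part of the markers. RB07 and RB10, labelled B-cell, had log2 signals of 12.11 and 12.54 for CD3E, which T cells carry at their antigen receptor, and of 8.06 and 8.11 for its B-cell counterpart CD79A. The T-cell label of FS22 stood beside 8.80 for CD3E and 10.09 for CD79A. MS4A1, another B-cell marker, was at 4.90 in FS22, 2.89 in RB07, 10.40 in RB10 and 10.89 in NE45. NE45, labelled T-cell, had 12.56 for CD3E and 7.87 for CD79A. MS4A1 was at 12.02 to 12.50 on the other E-J arrays and at 9.88 to 11.17 on normal arrays. The markers therefore disagreed for FS22, RB10 and NE45. Summed signals of 7 B-cell markers were 13.05 to 14.70 (log2) in E-J, 7.25 to 11.25 in K-N and 12.29 to 13.09 in normal nodes, and those of 8 T-cell markers were 11.59 to 13.94, 15.57 to 15.95 and 13.82 to 14.96 in the same 3 groups. Array 3024l had a 3' to 5' signal ratio for GAPDH of 23.2, against 3.30 to 8.94 on the other 13 arrays. Median signals were 85.5 to 131 per array, and 47.2% to 55.7% of probe sets reached a signal of 100, below which a value was treated as dim. In nodes, which are mixtures of cells, fewer cells of a type and less RNA per cell cannot be told apart.

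A member was tested where its signal reached 100 on at least 3 arrays of a comparison, and 59 of the 71 did so over all 14 arrays. The 12 that did not were 4 DNAJB, 3 DNAJC, 2 HSP70 and 3 small heat shock protein genes. The map of the 59 members array by array shows the main features. As means over probe sets, CCT2, CCT3, CCT8, HSPD1 and HSPE1 were above all normal arrays in all 10 lymphomas, DNAJB9 and HSPB8 were below all normal arrays in all 10, and DNAJA4 was below normal in E-J and above normal in K-N. Taken alone, every probe set of CCT3, CCT8 and HSPD1 and some of CCT2 overlapped between lymphoma and normal arrays.

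**Figure D1:**
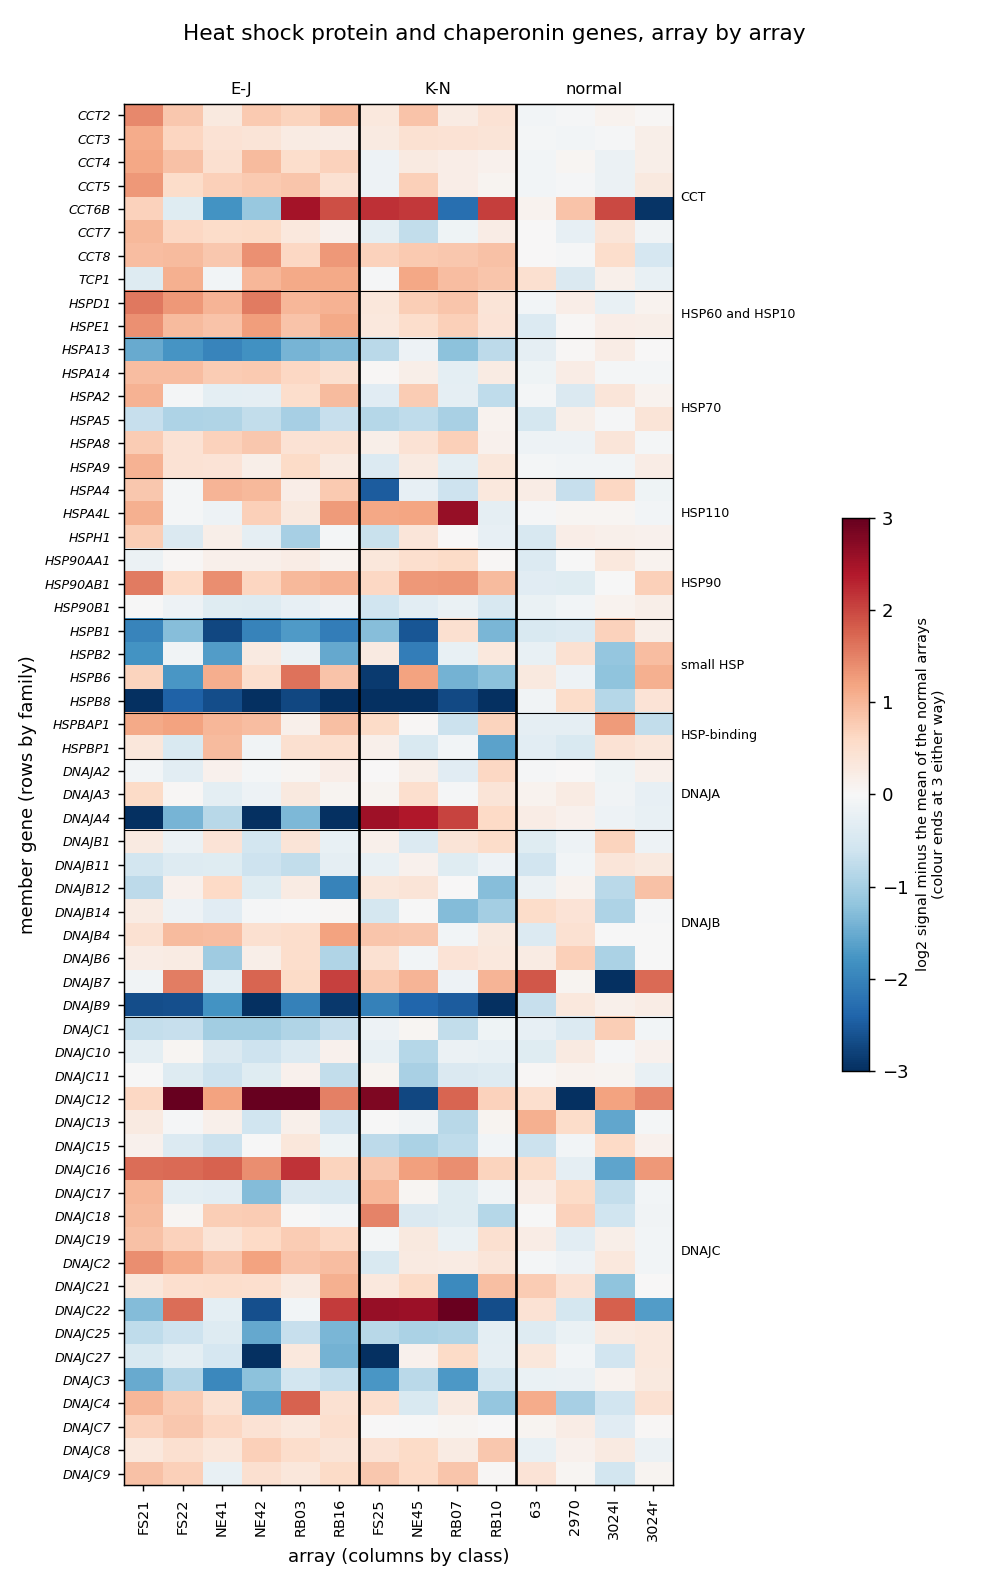
Log2 signal of the 59 members with enough signal to be tested (rows, by family) on the 14 arrays (columns, by class), as the difference from the mean of the 4 normal arrays; red is higher and blue is lower, with the colour scale ending at 3 in either direction. DNAJB9 and HSPB8 are blue in all 10 lymphomas, HSPD1 and HSPE1 are red in all 10, and DNAJA4 is blue in the 6 E-J arrays and red in the 4 K-N arrays.

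Lymphoma was compared with normal nodes first, with the 10 lymphomas against 3 dogs and the 2 nodes of dog 3024 averaged. By limma with Benjamini-Hochberg adjustment over 9400 genes, 2 of the 59 members were higher at an adjusted p under 0.05, CCT8 and HSP90AB1, and 2 were lower, DNAJB9 and HSPB8. Over all genes tested 1.03% were higher and 2.6% were lower, so that neither count of 2 stood far from the background. As a mean over its probe sets, HSPB8 reached a signal of 100 on no lymphoma array and on all 4 normal arrays. It therefore met the filter only through the group where it was high, and had to be lower to be tested. Its brightest probe set alone reached 100 on 13 of the 14 arrays. The median difference of the members was 0.16 on the log2 scale against -0.03 for all genes tested, and 36 members (61%) had a positive difference against 48% of all genes. At an adjusted p under 0.2, 8 members were higher and 7 lower, beside 5.87% and 8.14% of all genes. The B-cell set was compared with its 3 normal nodes in the same way, and of 55 members tested 6 were higher (CCT2, CCT8, DNAJC2, HSPBAP1, HSPD1 and HSPE1) and 5 were lower (DNAJA4, DNAJB9, HSPA13, HSPB1 and HSPB8). HSPB8 and DNAJA4 met the filter there only through the 3 normal nodes. The background there was 3.48% higher and 7.39% lower of 8295 genes, and the medians were 0.21 for the members and -0.06 for all genes, with 32 members above 0 beside 46.8% of all genes. At an adjusted p under 0.2 the counts were 16 and 9, beside 14.3% and 19.8%. Probe sets were also tested 1 by 1, where 0.796% were higher and 1.77% lower over all lymphomas, and 2.49% and 5.55% in the B-cell set. The calls differed in how many alternative settings they held. Over all lymphomas DNAJB9 and HSPB8 passed in 21 of 23 settings, CCT8 in 14 and HSP90AB1 in 11. Within the B-cell set DNAJB9 and HSPB8 passed in 15 of 18, HSPB1 and HSPA13 in 13, HSPD1 in 10, CCT8 and DNAJA4 in 8, CCT2 in 6 and HSPBAP1 in 3, and DNAJC2 passed in 10 and HSPE1 in 8 of 17. Both comparisons share normal nodes and 4 lymphomas, so their values stand side by side and do not bear each other out. The larger count in the B-cell set is not shown to differ from that over all lymphomas, since the difference was not tested.

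**Figure D2:**
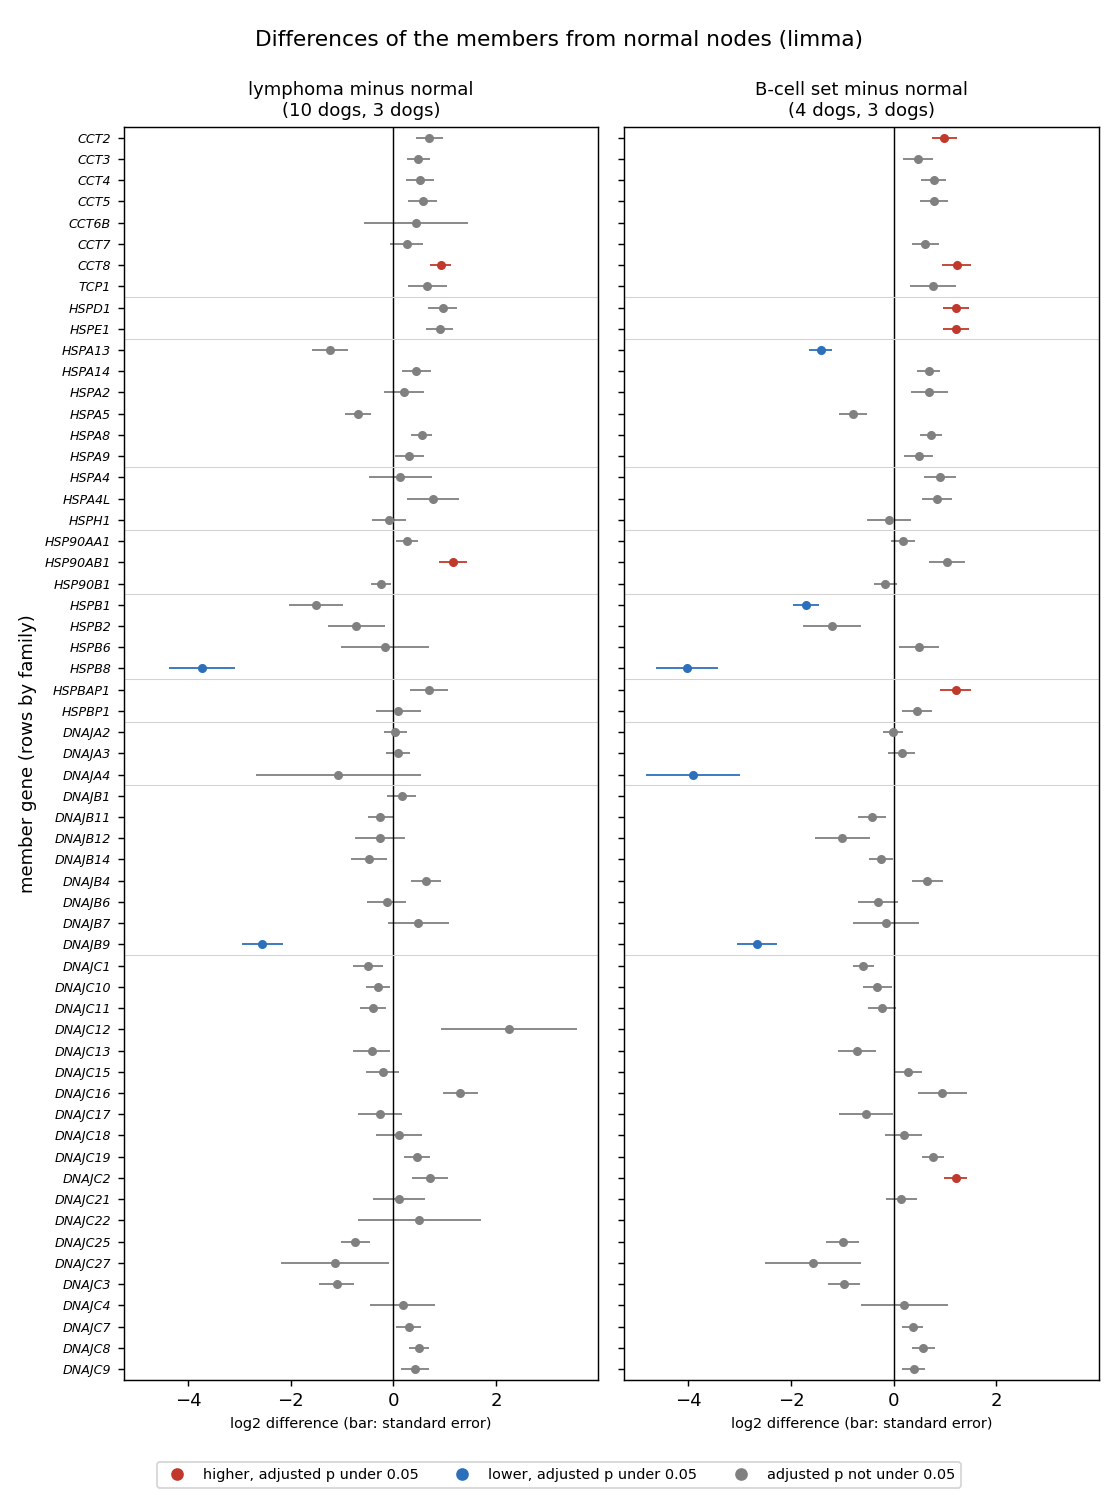
Log2 difference of each tested member (rows, by family), lymphoma minus normal nodes on the left (10 and 3 dogs) and the B-cell set minus its normal nodes on the right (4 and 3 dogs), with bars of 1 standard error; coloured points passed an adjusted p of 0.05 (limma). DNAJB9 and HSPB8 lie farthest to the left among coloured points in the left panel, at -2.55 and -3.73. All CCT subunits tested lie to the right of 0 in both panels, and CCT6B is absent from the right panel.

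The CCT complex folds actin, tubulin and many other proteins of the cytosol in a chamber built of 8 kinds of subunit. All 8 subunit genes on the array had a positive difference between lymphoma and normal nodes, with a median of 0.54, and 1 of them passed the test. Of the 7 tested in the B-cell set all had a positive difference, with a median of 0.78, and 2 passed.

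CCT8, which encodes the theta subunit, had log2 signals of 10.72 to 11.45 (median 10.93) in the 10 lymphomas, against 10.10 in normal node 63, 10.05 in 2970, 10.62 in 3024l and 9.58 in 3024r. All lymphoma arrays were above all normal arrays, the nearest pair being RB03 and 3024l. The log2 difference was 0.92 (SE 0.21, limma adjusted p = 0.0352), or 1.89-fold, with an SD of 0.24 among the 10 lymphomas and of 0.03 among the 3 normal dogs. The second SD is that of dog means, and the 2 nodes of dog 3024 lay on either side of the other normals. This call was lost without any 1 of FS22, FS21, 63, 3024r and 2970 (adjusted p of up to 0.185), and also with no filter, with arrays centred on their median, with the brightest probe set and without probe sets ending in _s_at or _x_at. In the B-cell set the log2 signals of CCT8 were 11.02 in FS21, 11.45 in NE42, 10.72 in RB03 and 11.39 in RB16, and the difference was 1.23 (SE 0.28, adjusted p = 0.0335). That call was lost without any 1 of NE42, FS21, RB16, 63, 3024r and 2970 (adjusted p of up to 0.123), and with 3024l in place of 3024r it became 0.89 (adjusted p = 0.156). Both bright probe sets of CCT8 passed alone there, at 1.32 and 1.26 (adjusted p = 0.0458 and 0.0322, over all probe sets), and the third was dim on 6 of the 14 arrays. Over all lymphomas no probe set of CCT8 passed alone. The bright ones had 0.99 and 0.83 (adjusted p = 0.0683 and 0.148) and the third 0.94 (adjusted p = 0.209), each with overlapping groups.

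CCT2, the beta subunit, had log2 signals of 12.68 in FS21, 12.02 in NE42, 11.90 in RB03 and 12.18 in RB16, against 11.15 in 63, 11.19 in 2970 and 11.26 in 3024r. The 4 lymphomas of the B-cell set lay clear of the 3 normals, which were close to each other. The difference was 0.99 (SE 0.25, adjusted p = 0.0474), or 1.99-fold, and it failed the test in 12 of 18 refits, among them those without any 1 of NE42, FS21, RB16, 63, 3024r and 2970 (adjusted p of up to 0.165). Over all lymphomas the CCT2 difference was 0.70 (SE 0.26, adjusted p = 0.16), although all 10 lymphomas exceeded every normal array.

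The remaining subunits did not pass either test. CCT3 (gamma) was at 13.03 to 13.94 in the 10 lymphomas and at 12.74 to 12.99 on the 4 normal arrays. The groups did not overlap in this mean but did in each probe set, and the difference was 0.49 (SE 0.22, adjusted p = 0.255). CCT4 (delta) had 0.52 (SE 0.28, adjusted p = 0.337), CCT5 (epsilon) 0.57 (SE 0.28, adjusted p = 0.304) and CCT7 (eta) 0.26 (SE 0.32, adjusted p = 0.719). TCP1, the alpha subunit, had 0.66 (SE 0.38, adjusted p = 0.376), a mean over 2 bright probe sets and 1 that was dim on 13 of the 14 arrays. CCT6B, known in human and mouse as the testis form of the zeta subunit, was dim on 8 of the 14 arrays and ranged over 2.75 to 7.50 in lymphoma and over 2.05 to 6.98 on normal arrays, and its difference was 0.44 (SE 1.01, adjusted p = 0.863). Its sign turned without 3024r, at -0.38.

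HSPD1 and HSPE1 encode HSP60 and HSP10, the chamber and lid of the mitochondrial chaperonin, and lie next to each other in the RefSeq annotation of the dog. HSPD1 had log2 signals of 14.54 in FS21, 14.52 in NE42, 13.96 in RB03 and 14.01 in RB16, against 12.89 in 63, 13.16 in 2970 and 13.07 in 3024r. HSPE1 had 15.42, 15.30, 14.92 and 15.20 in the same 4 lymphomas, against 13.65, 14.10 and 14.22 in the 3 normals. In both genes all 4 lymphomas were above all 3 normals. The difference was 1.22 for HSPD1 (SE 0.25, adjusted p = 0.027) and 1.22 for HSPE1 (SE 0.25, adjusted p = 0.026), or 2.32-fold and 2.33-fold. All 3 probe sets of HSPD1 passed alone, at 1.27, 1.16 and 1.22. Each of the 2 calls was lost without any 1 of NE42, FS21, 63, 3024r and 2970, at an adjusted p of up to 0.101 for HSPD1 and 0.1 for HSPE1. The HSPE1 call was also lost after quantile normalization, at 0.72 (adjusted p = 0.111).

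Over all lymphomas HSPD1 ranged over 13.30 to 14.54 (median 13.98), against 12.73 to 13.16 on the 4 normal arrays, and HSPE1 over 14.36 to 15.42 (median 14.91), against 13.65 to 14.25. No lymphoma overlapped a normal array in either gene as averaged, although each probe set of HSPD1 taken alone did overlap. The Beagle FS22, at 14.26 and 15.01, was among the higher lymphomas. The differences were 0.96 (SE 0.29, adjusted p = 0.0824) and 0.90 (SE 0.26, adjusted p = 0.0779), neither of which passed. The 2 genes also followed the classes. HSPD1 averaged 14.21 ± 0.27 in E-J (SD, n = 6), 13.53 ± 0.25 in K-N (n = 4) and 12.96 ± 0.19 on normal arrays (n = 4), and HSPE1 averaged 15.13 ± 0.21, 14.55 ± 0.18 and 14.05 ± 0.28. The lowest E-J array was above the highest K-N array and the lowest K-N array above the highest normal array for both.

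**Figure D3:**
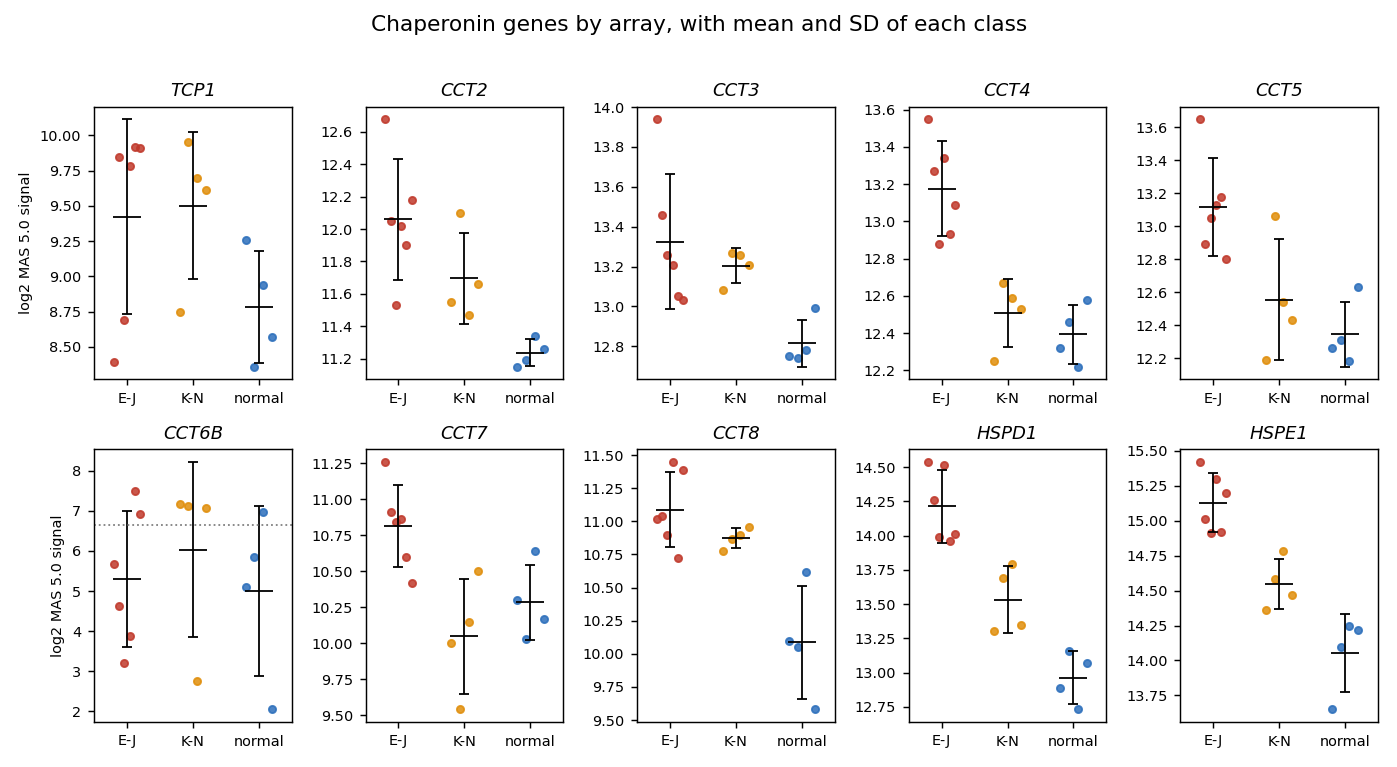
Log2 MAS 5.0 signal of the 8 CCT genes, HSPD1 and HSPE1 on each array (points), by class E-J, K-N and normal, with the mean and SD of each class (black) and, for CCT6B, a dotted line at a signal of 100. As means over probe sets, HSPD1 and HSPE1 step down from E-J to K-N to normal without overlap and CCT4 is higher in E-J alone. CCT2, CCT3 and CCT8 lie above normal in both lymphoma classes.

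Among the CCT subunits, CCT4 alone was higher on every E-J array than on every K-N array, as a mean over 3 probe sets. It had 12.88 to 13.55 in E-J (median 13.18) against 12.25, 12.67, 12.59 and 12.53 in FS25, NE45, RB07 and RB10. On the least bright probe set alone, NE41 had 12.38, below NE45 at 12.58 and normal node 2970 at 12.42. Against normal nodes, 5 CCT genes were higher on every E-J array and 3 on every K-N array, beside 7.26% and 6.93% of 9400 genes. Marker genes of dividing cells moved with the chaperonins. Of 9, 2 rose over all lymphomas and 4 in the B-cell set, and their summed signals were 13.50 to 14.66 (log2) in E-J, 14.53 to 14.95 in K-N and 13.12 to 13.66 in normal nodes. The ranges of the 2 lymphoma classes met only at their edge, with K-N the higher, whereas HSPD1, HSPE1 and CCT4 were higher in E-J. Its part in the chaperonin differences was not tested.

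Genes that work with CCT were counted from a fixed list. Of 15 prefoldin subunits and tubulin cofactors tested, none passed over all lymphomas (median 0.31), and 2 of 13 rose in the B-cell set (median 0.45). These were TBCA, which captures beta-tubulin, at 0.98 (SE 0.21, adjusted p = 0.0296) and TBCE, a cofactor that binds alpha-tubulin, at 1.07 (SE 0.25, adjusted p = 0.0382). Of 9 mitochondrial quality control genes tested none passed in either comparison. GRPEL1, the exchange factor of mitochondrial HSP70, had 0.57 in both (adjusted p = 0.259 over all lymphomas and 0.116 in the B-cell set).

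HSPA8, the constitutive HSP70 of the cytosol, had log2 signals of 14.44 to 15.11 (median 14.75) in lymphoma, against 14.16 in 63, 14.16 in 2970, 14.66 in 3024l and 14.24 in 3024r. The groups overlapped only through 3024l. The difference was 0.55 over all lymphomas (SE 0.21, adjusted p = 0.181) and 0.73 in the B-cell set (SE 0.21, adjusted p = 0.0704). HSPA9, the mitochondrial HSP70, had 0.31 (SE 0.28, adjusted p = 0.594) and 0.49 (SE 0.28, adjusted p = 0.274) in the 2 comparisons. HSPH1, an HSP110 protein, had -0.09 in both (SE 0.33 and 0.42), and its probe sets disagreed in sign, with 0.28 for 1 and -0.22 and -0.34 for the others over all lymphomas.

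HSPA14 and DNAJC2 are the HSP70 and J-domain partners that sit on the ribosome and meet the chain as it is made. DNAJC2 had log2 signals of 12.10 in FS21, 11.93 in NE42, 11.58 in RB03 and 11.65 in RB16, against 10.65 in 63, 10.56 in 2970 and 10.63 in 3024r. The groups lay far apart for their spread, and the difference was 1.21 (SE 0.22, adjusted p = 0.0213), or 2.31-fold. The call was lost without 63, 3024r or 2970 (adjusted p of up to 0.0993). HSPA14 had 0.68 in the B-cell set (SE 0.22, adjusted p = 0.0937).

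Both partners parted the classes. DNAJC2 was at 11.54 to 12.10 in E-J (median 11.74), against 10.25 in FS25, 10.98 in NE45, 10.97 in RB07 and 11.09 in RB10, and normal arrays were at 10.56 to 11.02. HSPA14 was at 9.52 to 9.98 in E-J (median 9.83), against 9.08, 9.23, 8.76 and 9.29 in the same 4 K-N arrays and 8.93 to 9.28 on normal arrays. E-J stood clear of both other groups in each gene mean, while K-N overlapped the normals. Of the 2 probe sets of HSPA14, the brighter kept E-J apart alone, and the other overlapped between E-J, K-N and normal arrays.

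HSP90AB1, the constitutive HSP90 of the cytosol, had log2 signals of 10.48 to 11.43 (median 10.89) in lymphoma, against 9.55 in 63, 9.51 in 2970, 9.87 in 3024l and 10.60 in 3024r. The node 3024r was above FS22, FS25 and NE42, and the other normal arrays were below all lymphomas. The difference was 1.16 (SE 0.27, adjusted p = 0.0374), or 2.23-fold. The probe sets differed. Of the 5 probe sets of the gene, 3 were bright on all 14 arrays and had 0.63 to 1.02 with none past the test, 1 was bright on 7 arrays and had 1.76 (adjusted p = 0.0374 over all probe sets), and 1 was dim on all arrays and had 1.58. The brightest probe set was the one at 0.63, and without any 1 of NE45, FS21, RB16, 3024l, 63 and 2970 the call was lost (adjusted p of up to 0.205). HSP90AA1, the inducible form, was read by 1 probe set with a single symbol and had 0.27 (SE 0.22, adjusted p = 0.56), which turned to -0.16 after quantile normalization.

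Of 23 co-chaperones of HSP70 and HSP90, none rose and 1 fell in each comparison. STIP1, which links HSP70 to HSP90, had 0.64 over all lymphomas (SE 0.24, adjusted p = 0.167), and PPID, a peptidyl-prolyl isomerase of the HSP90 complex, had 0.51 (SE 0.25, adjusted p = 0.288). No gene of 6 heat shock factors and their binding proteins tested passed over all lymphomas, and none of 4 in the B-cell set. HSF2 had 0.69 (SE 0.35, adjusted p = 0.318) over all lymphomas. DNAJB1, the J-domain partner of HSP70 in the heat shock response, had a difference of 0.16 (SE 0.28, adjusted p = 0.811) as the mean of 4 probe sets that disagreed in sign. The brightest, with a signal of 100 on 13 of the 14 arrays, had 0.25 (adjusted p = 0.812), another, bright on 10, had -0.20 (adjusted p = 0.891), and one bright on 7 had means of 6.36 in lymphoma and 7.36 in normal nodes (adjusted p = 0.264). The remaining probe set was dim on all 14 arrays and lowers the mean.

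The co-chaperone that fell was BAG3, which is known to bind HSPB8 and HSP70 and to send their clients to autophagy. It averaged 7.28 ± 0.53 in lymphoma and 8.97 ± 0.06 in normal nodes (SD, n = 10 and 3), a difference of -1.68 (SE 0.33, adjusted p = 0.0207), and -1.74 in the B-cell set (SE 0.38, adjusted p = 0.0308). Of the 7 small heat shock proteins 4 were tested, of which 1 fell over all lymphomas and 2 in the B-cell set. HSPB2 had -0.72 (adjusted p = 0.527) over all lymphomas and -1.20 (adjusted p = 0.205) in the B-cell set, and HSPB6 had -0.16 (adjusted p = 0.945) and 0.50 (adjusted p = 0.421), both named after their values were seen. HSPB8 was lower beside BAG3. Its log2 signals were 3.37 to 6.43 (median 5.44) in the 10 lymphomas, against 8.76 in 63, 9.42 in 2970, 8.02 in 3024l and 9.27 in 3024r. In this mean over probe sets, all lymphomas were under a signal of 100 and all normals above it. The difference was -3.73 (SE 0.64, adjusted p = 0.0105), and with dim signals set to 100 HSPB8 was at least 4.92-fold lower in lymphoma. In the B-cell set it was -4.02 (SE 0.60, adjusted p = 0.0124), or at least 5.69-fold lower. The brightest probe set, with a signal of 100 on 13 of 14 arrays (all but RB16), had -3.27 over all lymphomas (adjusted p = 0.02). The call over all lymphomas was lost without 2970 (adjusted p = 0.1), and that in the B-cell set without 3024r or 2970 (adjusted p of up to 0.0652).

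HSPB1, the small heat shock protein HSP27, fell in the B-cell set, with log2 signals of 8.92 in FS21, 8.90 in NE42, 9.21 in RB03 and 8.84 in RB16, against 10.45 in 63, 10.50 in 2970 and 11.08 in 3024r. The 2 groups were more than 1 apart. The difference was -1.71 (SE 0.25, adjusted p = 0.011), or 3.27-fold, and both probe sets passed alone. The call was lost without 3024r or 2970 (adjusted p of up to 0.0594). Over all lymphomas the difference was -1.51 (SE 0.53, adjusted p = 0.135). RB07 had a signal of 11.39, within the normal arrays, and the other 9 lymphomas were below all normals.

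Markers of the other cells of a node moved with HSPB1, HSPB8 and BAG3. Of 8 macrophage markers 6 fell over all lymphomas and 7 in the B-cell set, with medians of -2.71 and -3.01. Of 5 stromal markers tested 2 and 4 fell, and of 3 endothelial markers 2 and 3. Summed signals (log2) in lymphoma and in normal nodes were 10.38 to 12.64 and 14.14 to 15.72 for macrophages, 8.24 to 12.19 and 11.55 to 12.46 for stroma, and 9.88 to 11.67 and 12.77 to 13.47 for endothelium. None of the 5 muscle markers on the array reached a signal of 100 on 3 arrays. The part of these cells in the values of HSPB1, HSPB8 and BAG3 was not tested.

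**Figure D4:**
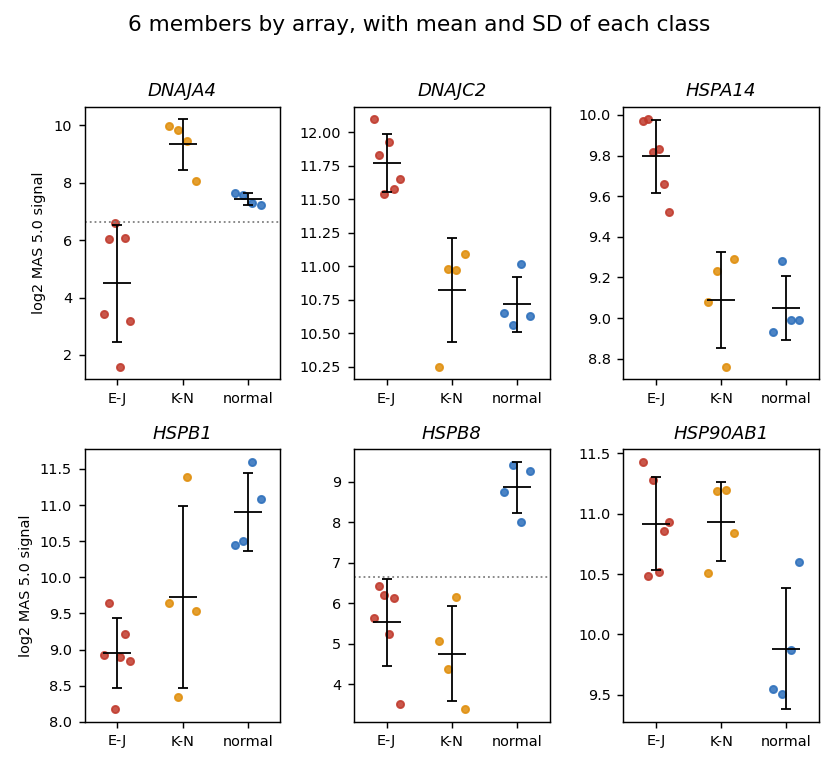
Log2 MAS 5.0 signal of DNAJA4, DNAJC2, HSPA14, HSPB1, HSPB8 and HSP90AB1 on each array (points), by class E-J, K-N and normal, with the mean and SD of each class (black) and a dotted line at a signal of 100 where it falls in the panel. DNAJA4 is under the line in all 6 E-J arrays and highest in the 4 K-N arrays, DNAJC2 and HSPA14 are high in E-J alone, and HSPB8 is under the line in all 10 lymphomas.

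Of the members, 8 were grouped as acting in or at the ER, a grouping by location made after values had been seen. It is not complete, and other J-domain members that may act there went both ways over all lymphomas. DNAJC16 had 1.30 and DNAJC18 0.11, and DNAJB12 had -0.26, DNAJB14 -0.47 and DNAJC25 -0.74. All 8 had a negative difference over all lymphomas (median -0.59) and in the B-cell set (median -0.69). DNAJB9 passed in both and HSPA13 in the B-cell set. Every array was lower than all normal arrays for 5 of the 8 in E-J and for 3 in K-N, beside 7.97% and 9.12% of 9400 genes. For HSP90B1 in K-N this rests on less than the rounding, with 14.92 in both RB07 and normal node 63. On its brighter probe set alone, RB07 had 16.01 and was above all normal arrays.

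DNAJB9, a J-domain partner of HSPA5 that is known as a target gene of XBP1, had log2 signals of 6.30 to 8.39 (median 7.61) in lymphoma, against 9.49 in 63, 10.51 in 2970, 10.33 in 3024l and 10.41 in 3024r. The Beagle FS22 had 7.55, and the highest lymphoma, NE41, was more than 1 below the lowest normal. DNAJB9 averaged 7.58 ± 0.63 in lymphoma and 10.12 ± 0.55 in normal nodes (SD, n = 10 and 3 dogs), a difference of -2.55 (SE 0.40, adjusted p = 0.00872), or 5.84-fold. E-J and K-N did not separate, with means of 7.64 ± 0.55 (n = 6) and 7.49 ± 0.81 (n = 4). In the B-cell set the difference was -2.66 (SE 0.39, adjusted p = 0.011), and both probe sets passed alone at -2.11 and -3.22. The call over all lymphomas was lost without 2970 (adjusted p = 0.0818), and that in the B-cell set without 3024r or 2970 (adjusted p of up to 0.0652).

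HSPA13, an HSP70 of microsomes, had log2 signals of 8.93 in FS21, 8.64 in NE42, 9.06 in RB03 and 9.15 in RB16, against 10.18 in 63, 10.48 in 2970 and 10.46 in 3024r. No lymphoma came within 1 of a normal node. The difference was -1.42 (SE 0.23, adjusted p = 0.015), or 2.68-fold, lost without 3024r or 2970 (adjusted p of up to 0.0785). Over all lymphomas it was -1.23 (SE 0.35, adjusted p = 0.0683). HSPA13 also parted the classes, at 8.47 to 9.15 in E-J (median 8.81) against 9.64 in FS25, 10.30 in NE45, 9.21 in RB07 and 9.67 in RB10. On the less bright of its 2 probe sets the classes overlapped, with 8.69 in RB16 and 8.67 in RB07.

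HSPA5, known as BiP and the main HSP70 of the ER, had log2 signals of 12.69 to 13.77 (median 12.86) in lymphoma, against 13.15 in 63, 13.86 in 2970, 13.63 in 3024l and 14.06 in 3024r. In this mean of 2 probe sets, only RB10 was within the normals, and the other 9 lymphomas were below them. On the brighter probe set alone, FS21 (13.40), NE42 (13.38), RB16 (13.38), NE45 (13.32) and FS25 (13.29) were also above normal 63 (13.22). The difference of the gene mean was -0.69 (SE 0.26, adjusted p = 0.163), and -0.79 in the B-cell set (SE 0.28, adjusted p = 0.106). DNAJC3, an inhibitor of the stress kinase PERK that binds BiP, was below normal on all 10 lymphoma arrays, at 8.68 to 10.08 against 10.42 to 10.91, with a difference of -1.10 (SE 0.34, adjusted p = 0.0884). Of its 4 probe sets, 2 passed alone over all lymphomas, at -1.23 and -1.21 (adjusted p = 0.041 and 0.0398). HSP90B1, the HSP90 of the ER, had -0.24 (SE 0.20, adjusted p = 0.544), with its 2 probe sets at -0.47 and -0.02. DNAJB11, DNAJC1 and DNAJC10, like DNAJC3 chosen after their values were seen, are further J-domain partners of BiP and had -0.25, -0.49 and -0.30 over all lymphomas with adjusted p between 0.38 and 0.632.

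**Figure D5:**
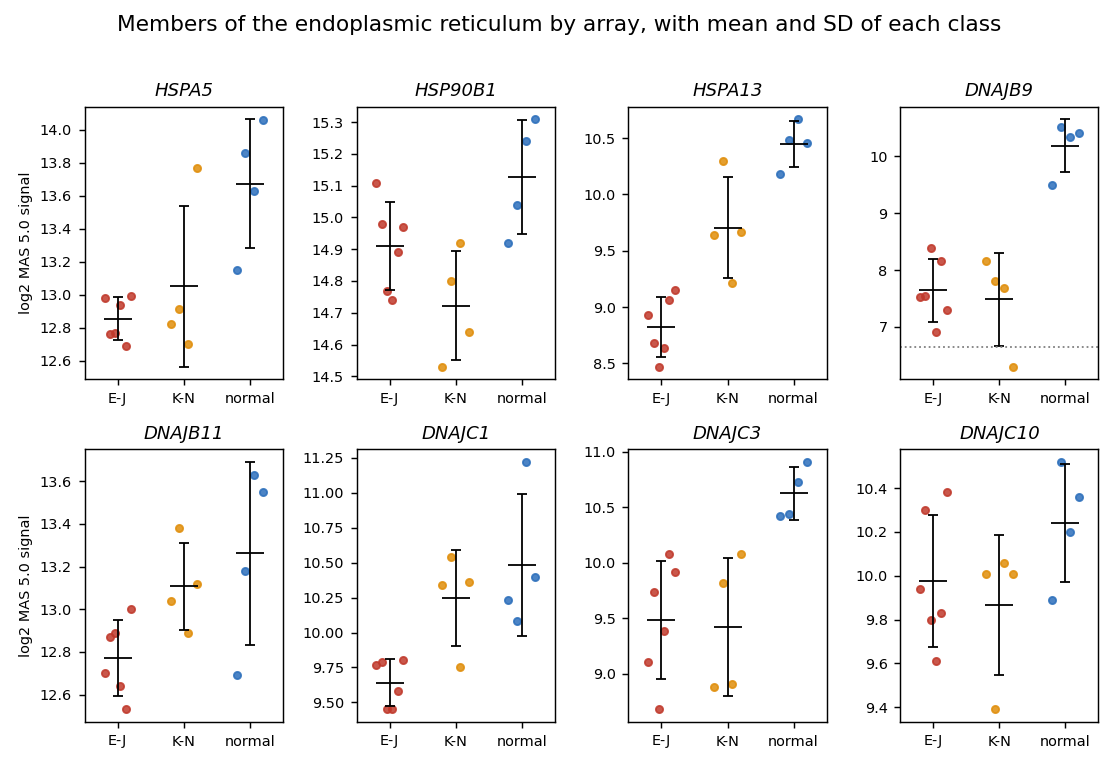
Log2 MAS 5.0 signal of the 8 members grouped under the endoplasmic reticulum on each array (points), by class E-J, K-N and normal, with the mean and SD of each class (black). As means over probe sets, DNAJB9 and DNAJC3 are below every normal array in all 10 lymphomas and HSPA5 is below them in 9. DNAJB11 and the E-J arrays of HSP90B1 overlap the normals.

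Other genes of the ER were counted from fixed lists. Of 10 regulators of the unfolded protein response, 2 fell over all lymphomas and 4 in the B-cell set, and none rose, with medians of -0.76 and -1.01. XBP1, the transcription factor that drives ER expansion, averaged 9.56 ± 0.35 in lymphoma and 11.62 ± 0.28 in normal nodes (SD, n = 10 and 3), a difference of -2.07 (SE 0.26, adjusted p = 0.00401), and had -2.18 in the B-cell set (SE 0.30, adjusted p = 0.0104). SEL1L, a part of the complex that sends ER proteins to degradation, had -1.31 (SE 0.28, adjusted p = 0.0268) and -1.27 (SE 0.32, adjusted p = 0.0459). ERN1, the sensor that splices XBP1, had -4.13 over all lymphomas (SE 1.19, adjusted p = 0.0741), where 7 of 10 lymphoma arrays were under a signal of 100. It was lower in the B-cell set (-5.67, SE 0.98, adjusted p = 0.018), where all 4 lymphoma arrays were under it and all 3 normals above, so that it met the filter only through the normals. With dim signals set to 100 ERN1 was at least 7.32-fold lower there.

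Of 15 ER folding enzymes none passed over all lymphomas (median -0.77) and 3 fell in the B-cell set (median -0.66). These were P4HB, a disulfide isomerase, at -1.68 (SE 0.36, adjusted p = 0.0296), SIL1, an exchange factor of BiP, at -1.62 (SE 0.37, adjusted p = 0.035) with 3 of 4 lymphoma arrays under a signal of 100, and HYOU1, an HSP110 of the ER whose symbol is outside the rule, at -1.81 (SE 0.44, adjusted p = 0.0414). Markers of plasma cells moved with these genes. PRDM1, a transcription factor of plasma cells, had -3.53 over all lymphomas (SE 0.43, adjusted p = 0.0038), and JCHAIN, which joins chains of secreted antibody, had -3.23 (SE 0.94, adjusted p = 0.0761). Their summed signals were 7.94 to 10.25 (log2) in lymphoma and 11.39 to 12.71 in normal nodes, without overlap. Their part in the values of the ER members was not tested.

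DNAJA4, a J-domain protein of the cytosol, was the member that differed most between the classes. Its log2 signals were 3.44 in FS21, 6.03 in FS22, 6.61 in NE41, 1.59 in NE42, 6.08 in RB03 and 3.18 in RB16, all under a signal of 100. It had 9.98 in FS25, 9.83 in NE45, 9.46 in RB07 and 8.04 in RB10, and 7.65, 7.57, 7.29 and 7.22 on normal arrays 63, 2970, 3024l and 3024r. In this mean of 2 probe sets, every E-J array was below, and every K-N array above, all normal arrays. On the less bright probe set alone, E-J overlapped the normals. There NE41 had 6.80 and RB03 6.52, against 6.07 in 3024l and 6.69 in 3024r. E-J averaged 4.49 ± 2.03 (SD, n = 6) and K-N 9.33 ± 0.88 (n = 4), a difference of -4.84, and with dim signals set to 100 DNAJA4 was at least 6.42-fold lower in E-J than in K-N. Against normal nodes it was at least 1.73-fold lower in E-J, and it was 3.72-fold higher in K-N. Both of its probe sets were dim on 6 of the 14 arrays.

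DNAJA4 met the filter of the B-cell set only through the 3 normals, and there it fell by 3.91 on the log2 scale (SE 0.92, adjusted p = 0.0387), which is at least 1.79-fold. This call was lost without any 1 of NE42, FS21, RB16, 63, 3024r and 2970 (adjusted p of up to 0.134). Over all lymphomas, which mix both classes, the difference was -1.07 (SE 1.60, adjusted p = 0.774), and it turned to 0.19 with signals raised to at least 100. T-cell markers moved with DNAJA4 across the classes, as given above, and their part was not tested.

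HSPBAP1, a protein that binds HSPB1, had log2 signals of 9.35 in FS21, 9.14 in NE42, 8.37 in RB03 and 9.12 in RB16, against 7.94 in 63, 7.95 in 2970 and 7.47 in 3024r. The groups did not overlap, but the left node of dog 3024, outside this comparison, had 9.50. The difference was 1.21 (SE 0.30, adjusted p = 0.0456) and it became 0.53 (adjusted p = 0.525) with 3024l in place of 3024r. Neither of its 2 probe sets passed alone. The one bright on all 14 arrays had 0.64 (adjusted p = 0.22) with overlapping groups, and the other had 1.77 (adjusted p = 0.0595) against normals that were all dim, at 5.64, 6.30 and 4.80. The call was also lost without any 1 of NE42, FS21, RB16, 63, 3024r and 2970 (adjusted p of up to 0.157). Over all lymphomas HSPBAP1 had 0.69 (SE 0.37, adjusted p = 0.34).

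Between the classes, 6 of the 59 members were higher on every E-J array than on every K-N array and 2 were lower, beside a background of 6.26% and 4.45% of 9400 genes. The 6 were CCT4, HSPD1, HSPE1, DNAJC2, HSPA14 and DNAJC7, a J-domain protein that binds both HSP70 and HSP90, and the 2 were DNAJA4 and HSPA13. The class means of the 6 differed by 0.53 to 0.95. DNAJC7 was named after its values were seen, with 10.75 to 11.24 in E-J, against 10.43 to 10.49 in K-N and 10.09 to 10.65 on normal arrays. These are means of 3 probe sets, none of which alone set E-J clear of K-N. RB03 had 11.37 against 11.41 in RB10, NE42 had 10.22 against 10.31 in RB07, and RB16 and RB07 both had 10.48. Against normal arrays, 13 members were higher and 8 lower on every E-J array (background 7.26% and 7.97%), and 6 were higher and 4 lower on every K-N array (background 6.93% and 9.12%). Without 3024l the counts of higher members were 15 and 8, and those of lower members were the same.

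By label, the 3 T-cell lymphomas were compared with the 7 B-cell lymphomas, although CD3E and CD79A went against 3 of these labels. None of 57 members passed in either direction (limma), and none of the 8567 genes tested did (background 0% and 0%). At an unadjusted p under 0.05 no member was higher and 1 was lower, HSPA4, an HSP110 protein, which averaged 7.44 ± 1.36 in T-cell and 8.88 ± 0.59 in B-cell lymphoma (SD, n = 3 and 7), a difference of -1.44 (SE 0.55, limma adjusted p = 0.956). Over all genes 1.37% were higher and 2.29% lower at that threshold. The HSPA4 mean is over 3 probe sets, 2 of them bright on only 7 and 3 of the 14 arrays, in which FS25 had 2.01 and 2.63. The probe set bright on all 14 arrays had 13.01 to 13.68 in T-cell and 12.97 to 13.96 in B-cell lymphoma, with T-cell values inside the B-cell range. DNAJA4 had a difference of 3.13 (SE 1.64, adjusted p = 0.956) with overlapping groups.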

How the data were processed

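The authors amplified the RNA of each node (WT-Ovation Pico), hybridised it to 1 array and deposited linear signal intensities from MAS 5.0 (version not given in the sources used here), scaled per array to a common trimmed mean. Of 43035 probe sets, 29254 with exactly 1 symbol in the platform annotation were averaged as log2 values into 15115 genes. A gene entered a test if its signal reached 100 on 3 or more of the arrays compared. Tests were two-sided moderated tests (limma 3.58.1, R 4.3.3) with Benjamini-Hochberg adjustment over all genes tested and a threshold of 0.05, after a check on simulated data. The 2 nodes of dog 3024 were averaged over all lymphomas, and 3024r alone entered the B-cell set. A fold marked "at least" sets signals under 100 to 100. The number of arrays limits the precision. Figures were drawn with matplotlib 3.10.9.

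The members, the gene lists and the tests were chosen with earlier results of these data known. Named were every CCT subunit, the main stress-inducible and constitutive members, members past the threshold (up to 10 in each direction), and the members that differed most between classes without overlap. Up to 3 genes of each pathway list with the smallest p could be named. PRDM1 and JCHAIN, DNAJC3 and other members named by value were chosen after their values were seen.

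Alternative settings concerned low signals, array scaling, how probe sets were combined, the test used and which arrays were fitted. Leaving 3024l out of the class counts, and testing probe sets 1 by 1, were added after seeing the data. RefSeq (UU_Cfam_GSD_1.0) served for names and neighbours alone.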

Additional observations from a re-analysis of the deposited data

Results flagged for a closer look

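As a mean over its 2 probe sets, DNAJA4 was lower on every E-J array and higher on every K-N array than all normal arrays. On the less bright probe set alone, E-J and normal arrays overlapped. The class means of the gene differed by -4.84 (E-J minus K-N). That difference was not tested, since the classes were drawn from these profiles.

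In the 104 groups looked at (26 named members in lymphoma, E-J, K-N and normal arrays), 11 held 1 array far from the rest of its group, where chance flags about 1 in 20 groups. Among lymphomas these were CCT3 in FS21 (13.94, next 13.46), HSPA5 in RB10 (13.77, next 12.99) and HSPB1 in RB07 (11.39, next 9.64), each the highest. In E-J it was HSPBAP1 in RB03 (8.37, next 9.12), and in K-N CCT6B in RB07 (2.75, next 7.08) and DNAJC2 in FS25 (10.25, next 10.97), each the lowest. Among normal arrays CCT3 (12.99) and HSPA9 (11.69) were highest in 3024r, HSPA8 (14.66) in 3024l and HSPA14 (9.28) in 2970, and HSPH1 was lowest in 63 (10.63).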

How the results depend on the processing

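Over all lymphomas, 2 members were higher and 2 lower. The counts of higher and lower members were 4 and 4 with log2(signal + 50), 4 and 4 with signals raised to at least 100, 7 and 4 with the Welch test, and 0 and 0 without probe sets ending in _s_at or _x_at. The higher count was also 0 with no filter, 1 with the brightest probe set and 1 with 3024r alone, and the lower count 4 with linear means. Leaving out 1 array gave 0 to 3 higher and 0 to 3 lower. No higher member was left without FS21, 63 or 2970, 1 was left without 3024l, and no lower member without 2970.

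In the B-cell set, 6 were higher and 5 lower. The counts were 0 and 2 with no filter, 11 and 8 with signals raised to at least 100, 0 and 0 with the methods' t-test, and 16 and 9 at an adjusted p under 0.2. The higher count was 1 without _s_at and _x_at probe sets and 0 with 3024l in place of 3024r, and the lower count 2 with all 14 arrays in 1 fit. Leaving out 1 array gave 0 to 7 higher (0 without 63, 3024r or 2970, 1 without NE42 or FS21, 3 without RB16) and 0 to 5 lower (0 without 3024r or 2970). A fit with fewer normal nodes is a smaller test. Between labelled T-cell and B-cell lymphomas no member passed under any setting run, from 0 to 0 with 1 array left out.

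For the classes, leaving out 1 array gave 6 to 10 higher and 2 to 4 lower in E-J against K-N, 13 to 16 and 8 to 10 in E-J against normal, and 6 to 10 and 4 to 7 in K-N against normal. The counts of 10, 4, 10 and 7 came without RB10, that of 4 also without RB07, and that of 7 also without 63.

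The sign turned for 6 members, none of them called where it did, and the cause was not tested. Over all lymphomas HSP90AA1 had -0.16 after quantile normalization, DNAJB1 -0.08 with log2(signal + 50), -0.10 with raised signals and -0.07 with linear means, DNAJA4 0.19 with raised signals, CCT6B -0.38 without 3024r (3024l alone), and HSPH1 0.00 with centred arrays, 0.28 without _s_at and _x_at probe sets, 0.00 without RB03 and 0.04 without 2970. In the B-cell set HSP90AA1 had -0.37 after quantile normalization, HSP90B1 0.08 on the brightest probe set and without _s_at and _x_at probe sets, and HSPH1 0.06 with centred arrays, 0.20 without _s_at and _x_at probe sets, 0.20 without RB03 and 0.04 without 2970. Of 593 refits of named members over all lymphomas 542 kept direction and call, as did 322 of 428 in the B-cell set.

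Centring arrays on their median moved the median of all genes in the B-cell set to 0.09, against -0.06 as deposited, and 33 of the 55 members lay above that median either way. The fit with the dog as a random block could not be fitted, since only 1 dog gave 2 nodes. No paired analysis was possible because the labels share no numbers between lymphoma and normal nodes that mark a common animal.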

Other observations

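A gene annotated only as HSP70, listed in RefSeq with HSPA1 as a synonym, was outside the rule for members and was read by 1 probe set. Its log2 signals were 7.41 in FS21, 7.07 in NE42, 7.57 in RB03 and 7.68 in RB16, against 10.11 in 63, 10.90 in 2970 and 10.52 in 3024r. The groups were more than 2 apart, a difference of -3.08 (SE 0.28, limma adjusted p = 0.00292). Over all lymphomas it was -1.53 (SE 0.85, adjusted p = 0.363), since K-N ranged over 7.92 to 11.71 with a mean of 9.95, against 7.77 in E-J and 10.01 on normal arrays. Immediate early genes moved with it. Their summed signals (log2, 8 genes) were 9.81 to 11.04 in E-J, below all of 11.55 to 12.91 in K-N and 11.29 to 12.69 on normal arrays, and in the B-cell set 5 of them were tested, with a median difference of -1.37 and none past the test. Their part in the values of this gene was not tested. The normal array 3024l, with the high 3' to 5' ratio, had 8.50, within the range of E-J.

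DNAJC16, a J-domain protein chosen after its values were seen, had 1.30 over all lymphomas (SE 0.34, limma adjusted p = 0.0505), from 1 probe set that passed alone at 2.23 (adjusted p = 0.0147) and 1 that did not, at 0.38 (adjusted p = 0.709). Its normal arrays ranged over 3.98 to 6.87, and those of 3024l and 3024r were the 2 ends of that range.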
